A study of Mus musculus with 2 samples.

Results

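*Epha3*, *Epha5*, *Epha6*, *Epha7* and *Epha8* encode receptor tyrosine kinases of the EphA class, and their expression was described in the cell classes of the wild-type cortex at E16.5. These 5 members were taken as listed, by gene symbol, from the 32285 genes of the count matrices, without regard to their values. *Epha4*, the remaining EphA receptor with well-known roles in the cortex, was not a member. In GRCm38.p6, the build that corresponds to the mm10 reference of the counting, *Epha3* lies at chr16:63543532-63864175 on the minus strand. *Epha6* lies on the same chromosome and strand at chr16:59641433-60610911. *Epha5* lies at chr5:84054761-84417818 on the minus strand. *Epha7* at chr4:28813066-28967503 on the plus strand and *Epha8* at chr4:136929419-136956859 on the minus strand share a chromosome.

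EphA receptors sit in the plasma membrane and bind ephrin-A ligands, which are anchored to the surface of neighbouring cells by a lipid, so that signalling needs contact between cells. The bound receptor signals into its own cell through its kinase domain and adaptor proteins that act on the actin cytoskeleton, and the ligand can signal in reverse. In the developing telencephalon the family is known for repelling growth cones and migrating cells, for mapping thalamic and cortical axons, and for sorting migrating neurons and interneurons.

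The data were 10x Genomics 3′ single-cell libraries of 2 E16.5 embryos, numbered 4 and 5, each a single library. Both were labelled WT and came from a mouse line with a Cre driven from the *Eomes* locus, which is active in intermediate progenitors, and from the C57BL/6J background given in the methods. The titles of both samples begin with EoMltt3. The tissue was labelled brain hemispheres and described as cortex dissociated in papain. There was 1 condition, so cell classes were compared within and across the embryos, and p-values measure only the spread between these 2 animals.

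Unique molecular identifiers (UMIs), which mark single transcript molecules, numbered 124318613 in 12825 barcodes of embryo 4 and 117679925 in 12289 barcodes of embryo 5. After filtering, 9932 and 10416 cells were kept. The libraries shared 46 barcodes, and the part of these in the results was not tested. All Eph and ephrin genes were kept out of the clustering, and clusters were named from marker lists, which gave 9 neuron and progenitor classes with 62.8% and 61.7% of the kept cells. These were radial glial cells (RGCs, the ventricular stem cells), intermediate progenitor cells (IPCs, the *Eomes*+ transit progenitors), migrating excitatory neurons, upper-layer neurons, layer 6 neurons, Cajal-Retzius cells of the marginal zone, interneurons of the medial and caudal ganglionic eminence (MGE, CGE) and GABAergic neurons of the lateral eminence type (LGE). Each name stands for cells that resembled the class by its markers. Of the markers of a class, 11 of 12 were highest in the RGC class, 7 of 8 in IPCs, 6 of 7 in layer 6 neurons, 7 of 8 in MGE, 6 of 7 in CGE and 9 of 9 in Cajal-Retzius cells, but only 4 of 7 in migrating neurons, 6 of 9 in LGE-type and 3 of 8 in upper-layer neurons. Another 10 clusters, with 35.0% and 36.3% of the cells, stayed unnamed, and no class of layer 5 or subplate neurons met the naming rule.

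Promoter sequences from RefSeq (GRCm38.p6) were read as windows of 300 bases around an annotated start, most of each upstream of it and on the strand of the gene, for the members whose levels differed most between classes. The *Epha3* window lay at chr16:63864126-63864425, that of *Epha5* at chr5:84417333-84417632 and that of *Epha6* at chr16:60605482-60605781, all on the minus strand. Capitals mark matches, on either strand, to the E-box CAGATG of proneural factors, the nuclear receptor core AGGTCA, the homeodomain core TAATTA or the T-box core GGTGTG, which do not overlap one another here.
*Epha3*: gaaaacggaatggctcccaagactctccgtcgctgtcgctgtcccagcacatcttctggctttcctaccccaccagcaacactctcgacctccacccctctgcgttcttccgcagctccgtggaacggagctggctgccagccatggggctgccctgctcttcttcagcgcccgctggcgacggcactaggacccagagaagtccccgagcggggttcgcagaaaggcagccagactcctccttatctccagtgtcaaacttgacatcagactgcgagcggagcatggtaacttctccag
*Epha5*: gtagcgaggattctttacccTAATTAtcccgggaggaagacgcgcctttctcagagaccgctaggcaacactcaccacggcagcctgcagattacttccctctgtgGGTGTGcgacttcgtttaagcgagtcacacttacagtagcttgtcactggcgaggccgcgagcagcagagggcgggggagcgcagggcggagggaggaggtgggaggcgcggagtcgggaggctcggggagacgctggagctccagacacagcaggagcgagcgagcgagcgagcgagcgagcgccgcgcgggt
*Epha6*: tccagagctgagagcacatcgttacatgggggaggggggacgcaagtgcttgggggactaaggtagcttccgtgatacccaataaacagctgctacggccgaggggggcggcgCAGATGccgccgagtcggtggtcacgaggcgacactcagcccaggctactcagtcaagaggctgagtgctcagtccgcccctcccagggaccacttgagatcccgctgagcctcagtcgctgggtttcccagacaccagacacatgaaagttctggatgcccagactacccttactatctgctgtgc
The *Epha5* window held 1 TAATTA and 1 GGTGTG, the *Epha6* window held 1 CAGATG, and the *Epha3* window held none of these letters. Across 32851 mouse promoter windows of the same length, CAGATG was found in 17.15%, AGGTCA in 16.26%, TAATTA in 5.291% and GGTGTG in 19.05%. A match describes letters only. All members had promoters richer in G and C than the median window of 52.67%, from 60.33% in *Epha6* to 84.33% in *Epha8*.

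Levels are given in CPM, the UMIs of a gene in all cells of a class and embryo per 1000000 UMIs of that class, with embryo 4 first and embryo 5 second. A 3′ library does not make the CPM of different genes comparable, so levels are ordered within a gene only. *Epha3* was lowest in RGCs, at 119 and 116 CPM, and highest in migrating excitatory neurons, at 2647 and 2627 CPM, a ratio of the means of 22.4. Upper-layer neurons held 2180.1 and 2022 CPM and IPCs 2014 and 2039.9 CPM, and these ranges overlapped. MGE interneurons followed with 812 and 755 CPM. Cajal-Retzius cells at 726 and 630.1 CPM and CGE interneurons at 491 and 638 CPM overlapped. Layer 6 neurons held 451 and 432 CPM and LGE-type neurons 208 and 187 CPM. In 6 of the 8 steps of this order the embryos of neighbouring classes did not overlap.

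In the order of *Epha5* all 8 steps were free of overlap. MGE interneurons led with 5027 and 4339 CPM, before CGE interneurons with 3828 and 4249 CPM and migrating neurons with 3528 and 3472 CPM. Upper-layer neurons held 2295 and 1944 CPM, IPCs 1663 and 1569.5 CPM, RGCs 1358 and 1402 CPM and layer 6 neurons 1342 and 1236 CPM. LGE-type neurons, at 725 and 613 CPM, and Cajal-Retzius cells, at 405 and 305 CPM, were the lowest. Thus, as whole classes, both interneuron classes from the medial and caudal eminence exceeded every named excitatory class, whereas the third GABAergic class lay below all of them. An unnamed cluster led by *Ndst3*, excitatory by its markers, held 4499.95 and 4255 CPM, above CGE interneurons.

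*Epha6* showed a different order. LGE-type neurons held 230 and 202 CPM, against 33.4 and 47.9 CPM in Cajal-Retzius cells and 32.2 and 45.4 CPM in MGE interneurons, which overlapped. CGE interneurons held 18.2 and 11.9 CPM and RGCs 13.8 and 16.0 CPM. In IPCs (6.67 and 5.92 CPM), upper-layer neurons (7.22 and 4.97 CPM), layer 6 neurons (3.48 and 12.1 CPM) and migrating neurons (5.54 and 2.90 CPM) it was lowest. The range of layer 6 overlapped that of each of the other 3 classes, while IPCs and migrating neurons did not overlap.

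*Epha7* was the most even member, with a ratio of 2.93 between the means of its highest and lowest class. Layer 6 neurons led with 244 and 265 CPM. CGE interneurons, at 230 and 220.1 CPM, and migrating neurons, at 216 and 225 CPM, overlapped. IPCs held 172 and 181 CPM, upper-layer neurons 143 and 135 CPM and Cajal-Retzius cells 133 and 116 CPM. LGE-type neurons (86.5 and 97.8 CPM), MGE interneurons (87.3 and 94.8 CPM) and RGCs (92.5 and 80.9 CPM) did not separate.

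*Epha8* was barely detected, with 35 and 42 UMIs among all kept cells. Its largest sums in a named class were 11 and 6 UMIs in LGE-type neurons, and RGCs held 0 UMIs in both embryos, where a count of 0 allows up to 3. No order of classes was read from such counts.

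**Figure D1:**
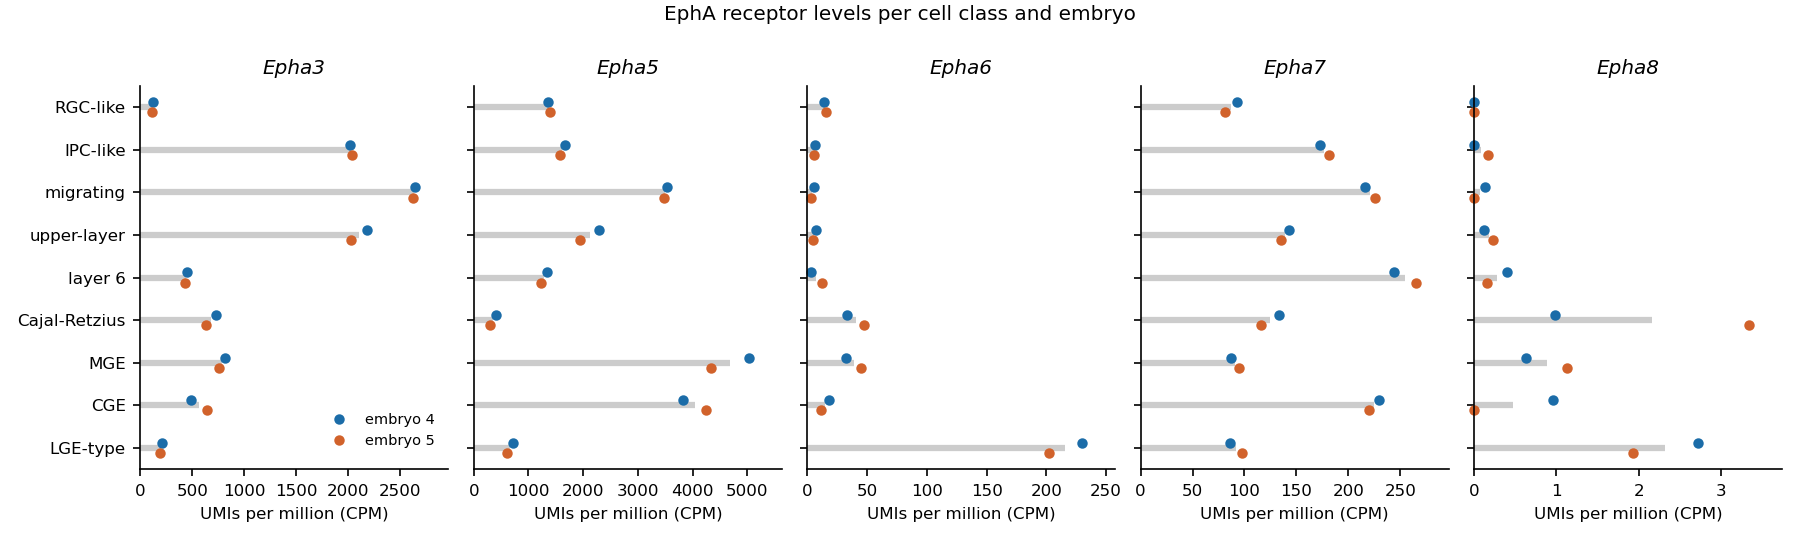
Level of the 5 members in the 9 neuron and progenitor classes, in CPM on a linear axis from 0 with its own scale for each gene. Points are the 2 embryos and bars their mean. *Epha3* spans 22.4-fold between class means, *Epha5* 13.2-fold, *Epha6* 51.2-fold and *Epha7* 2.93-fold.

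The first comparison followed the excitatory lineage from RGCs to IPCs. UMIs summed per embryo and class were tested with edgeR's quasi-likelihood test, and genes with an adjusted p (Benjamini-Hochberg over all 15879 genes tested) under 0.05 were called. *Epha3* was higher in IPCs than in RGCs by 4.14 ± 0.13 (log2 fold change ± SE; adjusted p = 3.5e-14). *Epha7* was higher by 1.07 ± 0.09 (adjusted p = 1.99e-08). *Epha6* fell by 1.20 ± 0.29 (adjusted p = 0.00199), from 13.8 and 16.0 CPM to 6.67 and 5.92 CPM. *Epha5* did not pass the test, with a log2 fold change of 0.27 ± 0.13 (adjusted p = 0.0879), and passed it with the embryo as a replicate block (adjusted p = 0.0422). Its direction was kept under 9 of 14 alternatives, from -0.28 to 0.38, and called under 4 of them. So 2 of 5 members were higher and 1 lower, where 23.3% of all genes tested were called higher and 27.8% lower. The *Epha3* difference was called under all 14 fitted alternatives, at 2.83 to 4.21.

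Between IPCs and migrating excitatory neurons, the next step of the lineage, 3 receptors differed. *Epha5* was higher in migrating neurons by 1.23 ± 0.13 (adjusted p = 3.75e-07), *Epha3* by 0.50 ± 0.12 (adjusted p = 0.00235) and *Epha7* by 0.44 ± 0.09 (adjusted p = 0.00103). *Epha6* had a log2 fold change of -0.43 ± 0.41 and was not called. The IPC side of this comparison pooled unlike clusters. In a non-cycling IPC cluster *Epha3* held 2999 and 3172 CPM, above the 2647 and 2627 CPM of migrating neurons, so its rise holds for the class sums only. With every cluster given to its nearest class, *Epha3* at 0.13 and *Epha7* at 0.073 were no longer called. Here 3 of 5 members were higher and 0 lower, beside 16.2% and 17.1% of all genes. *Epha3* therefore made its larger step between RGCs and IPCs and *Epha5* its larger step between IPCs and migrating neurons, although a test between the steps was not run.

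Both progenitor classes together were compared with the mean of migrating, upper-layer and layer 6 neurons. *Epha3* was lower in progenitors, with a log2 fold change of -1.64 ± 0.08 (adjusted p = 1.16e-12), as were *Epha7* at -0.86 ± 0.06 (adjusted p = 3.65e-10) and *Epha5* at -0.68 ± 0.08 (adjusted p = 6.7e-07). *Epha6* was called higher in progenitors by 0.56 ± 0.23 (adjusted p = 0.0359). This *Epha6* call was kept under 3 of 14 alternatives and was called in the other direction under 4, and all its class levels were at most 16.0 CPM. With 1 of 5 members higher and 3 lower, the background was 35.5% higher and 32.9% lower. IPCs are part of the progenitor mean, and in them *Epha3* was near the upper-layer level.

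Within the cortical plate, upper-layer neurons were compared with layer 6 neurons, the only deep-layer class named. *Epha3* was higher in the upper layers by 2.19 ± 0.12 (adjusted p = 7.45e-11) and *Epha5* by 0.66 ± 0.13 (adjusted p = 0.000478). *Epha7* went the other way, with a log2 fold change of -0.93 ± 0.09 (adjusted p = 2.63e-07). *Epha6* did not pass the test, at -0.38 ± 0.39, but was called lower in the upper layers under 6 of 14 alternatives, down to -2.64. Of all genes 16.9% were called higher and 17.7% lower, and of the members 2 and 1. The *Epha3* difference held in all 14 alternatives, at 1.57 to 2.73. *Epha5* was not called with at least 2000 detected genes per cell (0.27) or with doublets kept (0.21), and *Epha7* was not called at resolution 2 (-0.15) or with Eph genes in the clustering (-0.28).

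**Figure D2:**
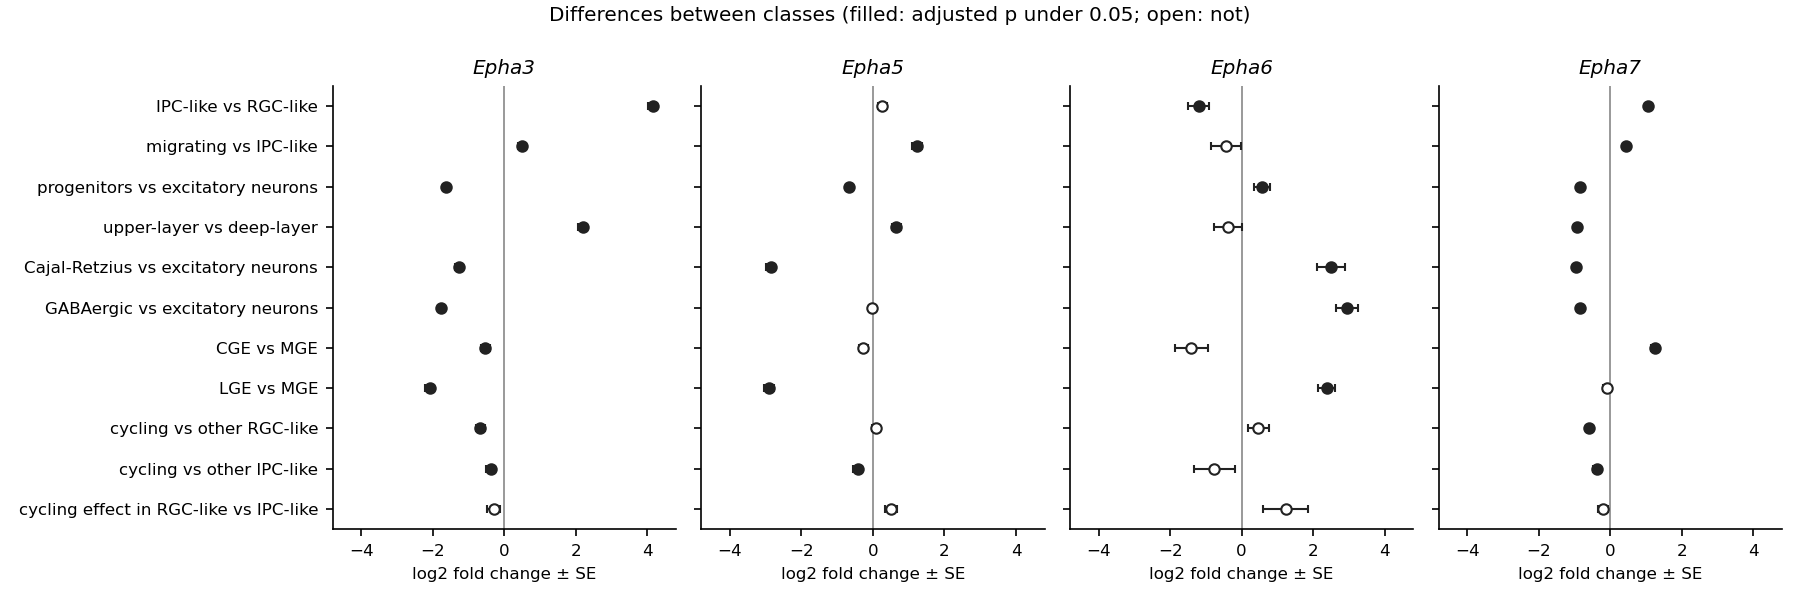
Log2 fold changes of *Epha3*, *Epha5*, *Epha6* and *Epha7* in the comparisons of classes, from the fit over all genes. Whiskers are standard errors, hidden by the point where they are short, and filled points were called at an adjusted p under 0.05. *Epha3* between IPCs and RGCs, at 4.14, is the largest difference drawn.

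GABAergic classes were set against the excitatory ones as the mean of MGE, CGE and LGE-type neurons minus the mean of the 3 excitatory classes. *Epha6* was higher in GABAergic neurons by 2.94 ± 0.31 (adjusted p = 3.31e-07). Excitatory neurons in the unnamed clusters did not enter this comparison. Among them, the clusters led by *Tafa1* and by *Slit3* held more *Epha6* than any named class. *Epha3* was lower, at -1.77 ± 0.07 (adjusted p = 2.39e-13), and *Epha7* was lower, at -0.85 ± 0.06 (adjusted p = 7.2e-10). *Epha5* did not pass the test on this average, at -0.03 ± 0.07 (adjusted p = 0.769), which put 2 high classes and 1 low class together and changed sign with DESeq2's size factors. *Epha8* was not called (adjusted p = 0.0566), with 11 and 6 UMIs in LGE-type neurons, 3 and 5 in MGE interneurons and 3 or fewer per embryo in each excitatory class. The members thus gave 1 higher and 2 lower, and all genes 18.7% and 22.0%. The *Epha6* call was lost with at least 2000 detected genes (0.68) and with nearest-class naming (0.37), *Epha5* was called lower under 4 of 14 alternatives and higher under 2, and *Epha8* was called under 7 of 13.

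Among GABAergic neurons, LGE-type cells differed most from MGE interneurons. *Epha5* was lower in LGE-type cells, with a log2 fold change of -2.91 ± 0.14 (adjusted p = 2.48e-11), and *Epha3* was lower, at -2.09 ± 0.12 (adjusted p = 5.03e-10). *Epha6* was higher in them by 2.38 ± 0.24 (adjusted p = 5.24e-07). *Epha7* differed by -0.09 ± 0.11 and was not called (adjusted p = 0.638), and neither was *Epha8* (adjusted p = 0.264). That is 1 of 5 members higher and 2 lower, beside 11.2% and 8.09% of all genes. The 3 calls held under each of the 12 alternatives that named both classes.

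CGE and MGE interneurons were closer to each other. *Epha7* was higher in CGE interneurons by 1.24 ± 0.11 (adjusted p = 3.28e-07). *Epha3* was lower, at -0.53 ± 0.12 (adjusted p = 0.00858). *Epha5*, at -0.27 ± 0.13 (adjusted p = 0.26), and *Epha6*, at -1.41 ± 0.46 (adjusted p = 0.0777), were not called. Over 9 alternatives *Epha6* was called lower under 4, down to -2.21, and *Epha5* under 1, at -1.39. Only 3.52% of all genes were higher and 3.73% lower, against 1 and 1 of the 5 members. The CGE class held 198 and 155 cells, and 5 alternatives named no such class. The *Epha7* call was lost with nearest-class naming (0.16) and the *Epha3* call in a fit of only these classes (-0.50), and without embryo 4 the *Epha3* value was -0.24 and without embryo 5 -0.73.

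Cajal-Retzius cells, the reelin-secreting neurons of the marginal zone, were compared with the 3 excitatory classes on 66 and 62 cells. *Epha5* was lower by the widest margin, at -2.86 ± 0.13 (adjusted p = 3.76e-12), then *Epha3* at -1.27 ± 0.11 (adjusted p = 1.87e-08) and *Epha7* at -0.95 ± 0.10 (adjusted p = 5.62e-07). *Epha6* was higher by 2.50 ± 0.40 (adjusted p = 6.55e-05), on 34 and 43 UMIs. *Epha8* was also called (adjusted p = 0.0278), but on 1 and 3 UMIs, and no fold is given. Counting it, 2 of 5 members were higher and 3 lower, beside 18.2% and 19.6% of all genes. Of all calls 48.2% were higher, and 60.0% by DESeq2. The *Epha6* call was lost in thinned cells (1.34) and with nearest-class naming (0.16), and the *Epha7* call with doublets kept (-0.20).

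Cycling progenitor clusters, led by genes of DNA replication and mitosis, were compared with the other clusters of the same class in a fit of their own. In RGCs *Epha3* held 76.3 and 91.7 CPM in cycling cells and 149.7 and 137 CPM in the others, a log2 fold change of -0.67 ± 0.13 (adjusted p = 0.00116). *Epha7* was lower in cycling RGCs by the same test, at -0.59 ± 0.10 (adjusted p = 0.000223), whereas *Epha5*, at 1401 and 1345 CPM in cycling and 1328 and 1451 CPM in other RGCs, was not called. In all, 0 of 5 members were higher and 2 lower, beside 7.18% and 4.15% of all genes. In IPCs, *Epha5* at -0.43 ± 0.12 (adjusted p = 0.0105), *Epha3* at -0.38 ± 0.12 (adjusted p = 0.0238) and *Epha7* at -0.38 ± 0.10 (adjusted p = 0.00547) were lower in cycling cells. That made 0 members higher and 3 lower, beside 15.1% and 12.3%. Cycling IPCs held 1693 and 1479 CPM of *Epha3*, between the non-cycling IPC clusters at 1259.7 and 1221 CPM and at 2999 and 3172 CPM. *Epha5*, at 1269 and 1180 CPM, also lay between them in each embryo, at 1193 and 1086 CPM and at 2366 and 2268 CPM. For these receptors cycling IPCs were thus lower than the sum of the others, not than each cluster. The *Epha3* difference turned its sign under 2 alternatives in RGCs, and those in IPCs turned theirs under up to 4, as given with the other alternatives. The cycling difference itself was compared between RGCs and IPCs, and 0 members were called higher or lower, beside 2.88% and 6.65% of all genes. The nearest was *Epha5*, at 0.51 ± 0.17 (adjusted p = 0.0648, and 0.023 with the replicate block).

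The non-cycling IPCs fell into a pair of clusters with unlike levels. *Epha3* held 1259.7 and 1221 CPM in the first and 2999 and 3172 CPM in the second. *Epha5* held 1193 and 1086 CPM in the first and 2366 and 2268 CPM in the second, and *Epha7* 143 and 159 CPM and 220 and 227 CPM. All 3 receptors were therefore higher, in both embryos, in the same cluster, and the mean of the IPC class lies between them. In that cluster *Epha3* was above the level of migrating neurons (2647 and 2627 CPM). *Epha7* overlapped theirs (216 and 225 CPM), and *Epha5* was below theirs (3528 and 3472 CPM).

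Clustering at resolution 2, which was used for this purpose after the data had been seen, split the classes further into 23 subclusters with at least 40 cells in each embryo, for which levels are given without a test. MGE interneurons split into a subcluster led by *Sox1ot* and *Adamtsl1*, of 399 and 343 cells, and one led by *Plxdc2* and *Tmem132b*, of 275 and 301 cells. The first held 7636 and 6723 CPM of *Epha5*, the second 2582 and 2299 CPM. The second was thus below the 3528 and 3472 CPM of migrating neurons, and the lead of MGE interneurons was uneven within the class. *Epha3* was 1145 and 1036 CPM in the first and 496 and 516 CPM in the second. *Epha7* did not separate them, at 86.2 and 98.6 CPM against 89.2 and 90.3 CPM. *Sst*, which encodes the peptide somatostatin, ran opposite, at 164 and 187 CPM in the first and 903 and 1168 CPM in the second. The first subcluster also had fewer UMIs per cell, with medians of 5415 and 5759 against 8467 and 7158, and the part of depth was not tested.

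In IPCs the subcluster led by *Thsd4*, *Tmem132b* and *Lpar1* held 981 and 959 CPM of *Epha3*, the one led by *Neurod4* and *Prox1* held 1653 and 1738 CPM, and the one led by *Luzp2* and *Myt1l* held 3248 and 3362 CPM. *Eomes* itself was 681 and 812 CPM in the first of these, 751 and 823 CPM in the next and 462 and 547 CPM in the last. It was lowest, at 380 and 466 CPM, in the subcluster led by *Top2a*, with 1657 and 1448 CPM of *Epha3*. The order of *Eomes* was thus not the reverse of that of *Epha3*. Among RGCs, the subcluster led by *Ung* and *Tnc* held 256 and 222 CPM of *Epha3*, while the other 4 lay between 45.1 and 91.8 CPM. A small layer 6 subcluster led by *Cdh18* and *Unc5c*, of 52 and 68 cells, held 493 and 617 CPM of *Epha7*. The other 2 layer 6 subclusters held 242 and 231 CPM and 193 and 122 CPM, so the lead of layer 6 in *Epha7* was uneven within the class. In the same small subcluster *Epha3* was 765 and 804 CPM, against at most 479.6 CPM in the others.

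Upper-layer neurons led by *Slit2*, *Pdzrn3*, *Unc5d* and *Cux2* had the highest levels of 3 members within their class, with 2801 and 2615 CPM of *Epha3*, 2877 and 2571 CPM of *Epha5* and 180 and 184 CPM of *Epha7*. Of these leading genes, *Pdzrn3* and *Unc5d* are on the marker list of migrating neurons and *Cux2* on that of upper-layer neurons. The subcluster led by *Islr2* and *Rnd2* held 1439 and 1350 CPM of *Epha3*. Its leading genes also included *Bcl11b* and *Hs3st4*, which are on the marker lists of deep-layer neurons. LGE-type neurons led by *Nell1* and *Kcnip4* held 262 and 292 CPM of *Epha6*, and those led by *Syt6* and *Gucy1a1* held 159 and 135 CPM. The 3 migrating subclusters stayed within 2228 to 2702 CPM of *Epha3*, the narrowest range of the excitatory classes.

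**Figure D3:**
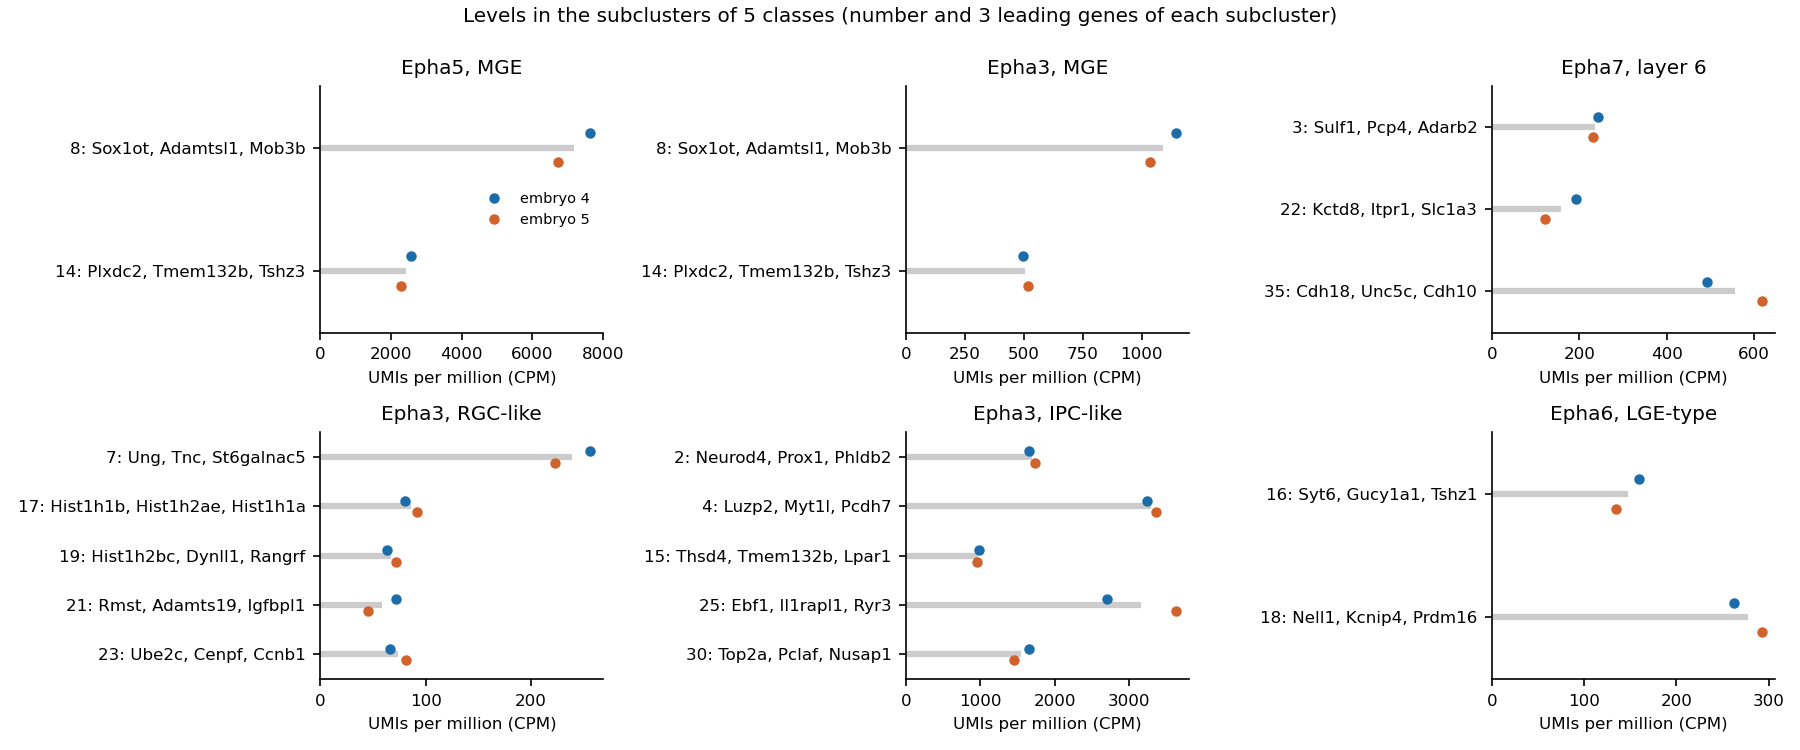
Level of 1 or 2 members in the subclusters of each of 5 classes, in CPM on linear axes from 0, with 1 point per embryo and bars at the mean. Subclusters carry a cluster number and their leading genes. In MGE interneurons *Epha5* was 7636 and 6723 CPM in one subcluster and 2582 and 2299 CPM in the other.

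The unnamed clusters held levels outside the range of the named classes for some members. *Epha6* was 494 and 431 CPM in the cluster led by *Tafa1* and *Tafa2* and 322 and 340.1 CPM in the one led by *Slit3* and *Crym*, above the 230 and 202 CPM of LGE-type neurons. *Epha6* was itself among the leading genes of both clusters, although it was kept out of the clustering. Both resembled excitatory neurons. The mean log2 ratio of excitatory neuron genes to all other cells was 0.34 in the *Tafa1* cluster and 0.18 in the *Slit3* cluster. That of GABAergic genes was -1.99 and -2.00. A cluster led by *Tfap2d* and *Nts* held 177 and 179 CPM. *Epha5* reached 4499.95 and 4255 CPM in a cluster led by *Ndst3*, which overlapped the MGE level. This cluster was nearest to migrating excitatory neurons, with ratios of 0.62 for excitatory neuron genes and -2.06 for GABAergic genes. *Epha3* reached 2719 and 2146 CPM in the *Tafa1* cluster. *Epha7* was 318 and 292 CPM there, above layer 6 neurons. No test was run on these clusters.

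**Figure D4:**
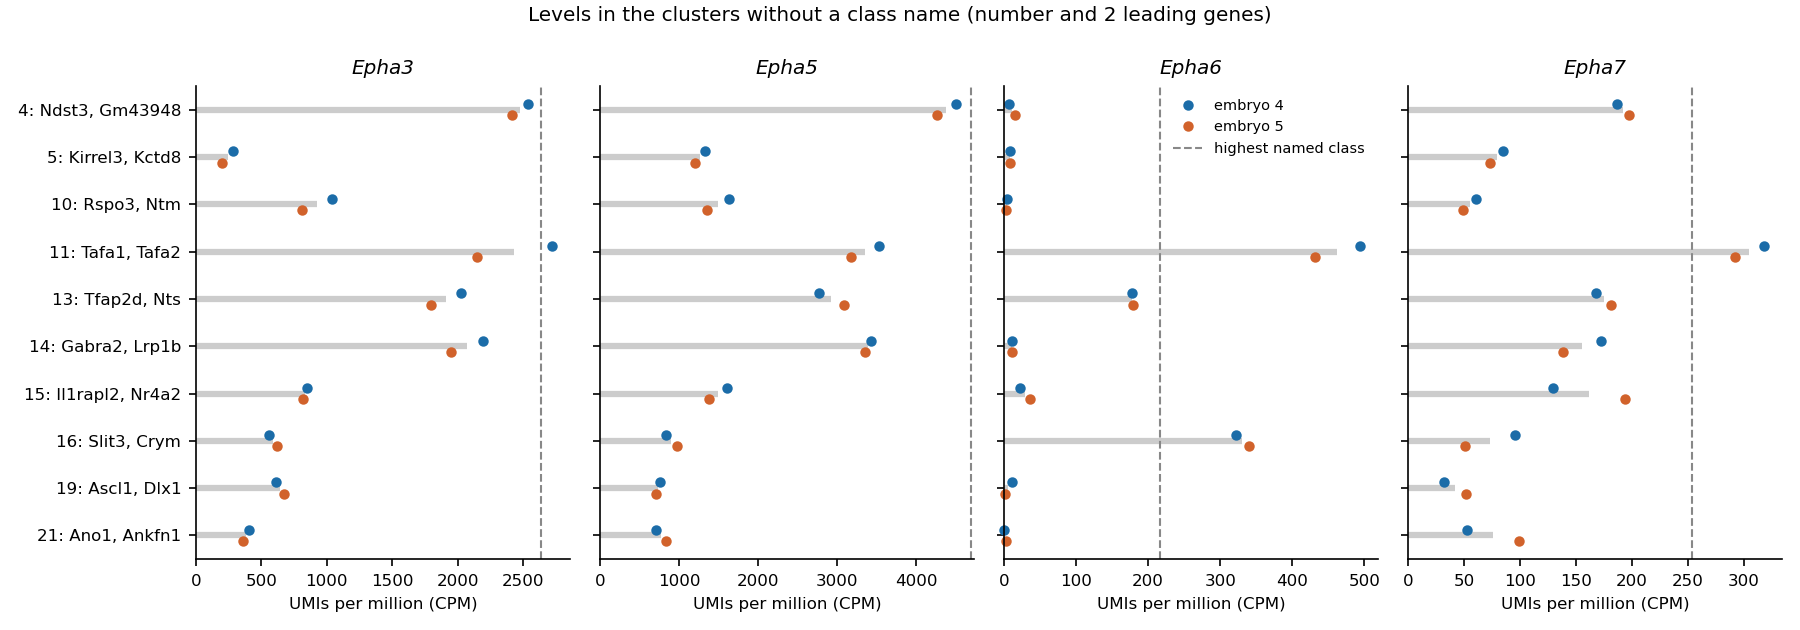
Level of 4 members in the 10 unnamed clusters, given by number and leading genes, in CPM on linear axes from 0, with 1 point per embryo, bars at the mean and a dashed line at the mean of the highest named class. *Epha6* was highest in the cluster led by *Tafa1*, at 494 and 431 CPM.

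Shares of cells with a UMI were taken after thinning each cell to 2000 UMIs, so that depth was equal. *Epha3* was found in 15.9% and 15.3% of RGCs, 82.7% and 80.9% of IPCs and 97.2% and 97.9% of migrating neurons. The erythroid class, named from its globin genes, served as background. It was shallow and impure, with *Sst* and the microglial genes *Tyrobp* and *C1qb* also among its leading genes. It gave 12.4% and 4.58%, at median depths of 3592 and 2650 UMIs before thinning, and pericytes 7.69% and 2.38%, at 10553 and 10571.5 UMIs. The RGC share was therefore near the background of embryo 4 and above that of embryo 5. *Epha5* was found in 96.8% and 96.5% of MGE interneurons, 92.2% and 92.6% of CGE interneurons and 85.5% and 85.1% of RGCs. For this gene erythroid cells gave 45.8% and 35.8%, so the 48.2% and 37.7% of LGE-type neurons and the 37.9% and 22.6% of Cajal-Retzius cells were at or close to its level. In CPM, Cajal-Retzius cells at 405 and 305 were near erythroid cells at 381 and 329, whereas LGE-type neurons at 725 and 613 were above them. Pericytes gave 5.77% and 4.76%, at 121 and 35.7 CPM, so the background was not the same in all cells.

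*Epha6* was found in 16.7% and 14.2% of LGE-type neurons, 4.25% and 4.29% of MGE interneurons and 3.03% and 3.23% of Cajal-Retzius cells, beside 0% and 0.917% of erythroid cells and 1.92% and 0% of pericytes. Its shares in IPCs, migrating, upper-layer and layer 6 neurons, all at most 1.05%, were within that background. *Epha7* was found in 11.3% to 35.6% of the cells of every class, beside 4.58% and 0% of erythroid cells and 0% and 2.38% of pericytes. Within MGE interneurons the thinned counts of *Epha5* varied widely between cells, with a variance of 8.35 and 6.70 times the mean.

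**Figure D5:**
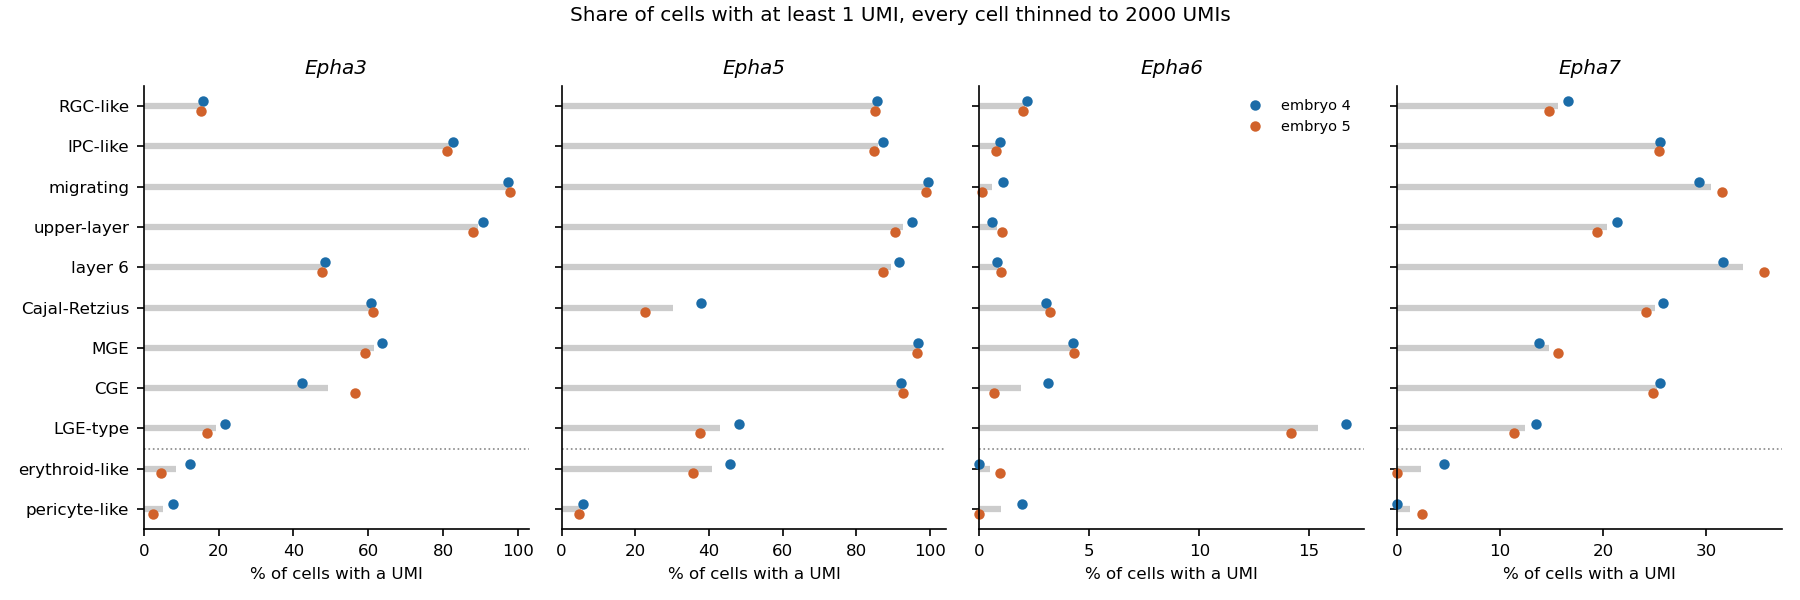
Share of cells with at least 1 UMI of each member after thinning to 2000 UMIs per cell, in percent on linear axes of different scale, with 1 point per embryo, bars at the mean, and erythroid and pericyte cells below the dotted line as background. In RGCs *Epha5* is found in 85.5% and 85.1% of cells and *Epha3* in 15.9% and 15.3%.

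In some classes cells with more *Epha3* also had more *Epha5*, and in others they did not. Across the thinned cells of MGE interneurons the Spearman correlation was 0.409 and 0.341, in IPCs 0.279 and 0.312 and in upper-layer neurons 0.274 and 0.342. In RGCs it was 0.015 and 0.038 and in layer 6 neurons -0.012 and 0.048. Cells share their library and are no replicates, so these are descriptions.

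The ligands of the family were measured in the same cells. *Efna5*, which encodes ephrin-A5, held 425 and 333 CPM in LGE-type neurons, 173 and 209 CPM in Cajal-Retzius cells and 160 and 162 CPM in MGE interneurons. It fell to 14.6 and 18.4 CPM in upper-layer neurons. CGE interneurons held 94.7 and 71.6 CPM. The unnamed cluster led by *Tfap2d*, excitatory by its markers, held 344 and 315 CPM and entered no comparison. Other unnamed clusters low in GABAergic genes held at most 80.0 CPM. Among the named classes *Efna5* was higher in GABAergic than in excitatory neurons by 2.27 ± 0.10 (adjusted p = 1.87e-12). It was lower in migrating neurons than in IPCs, at -0.54 ± 0.15 (adjusted p = 0.00845). In upper-layer against layer 6 neurons it was lower, at -1.33 ± 0.18 (adjusted p = 9.39e-06), where *Epha3* and *Epha5* were higher. Its profile across the 9 classes correlated with that of *Epha6* at 0.870 and 0.872 (Pearson's r, points sharing library and depth). *Efna3*, for ephrin-A3, was higher in IPCs than in RGCs by 3.22 ± 0.40 (adjusted p = 1.69e-06), as were *Efna4* by 0.92 ± 0.15 (adjusted p = 4.53e-05) and *Efna2* by 0.73 ± 0.11 (adjusted p = 2.49e-05). *Efna1* was lower, at -1.20 ± 0.44 (adjusted p = 0.0292), and so was *Efna5*, at -0.34 ± 0.14 (adjusted p = 0.0429).

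Of the 17 other Eph and ephrin genes, 15 were tested, and in IPCs against RGCs 4 were higher and 6 lower, beside 23.3% and 27.8% of all genes. Of the 22 tested genes among 23 partners of EphA signalling, 10 were higher and 5 lower there, led by *Chn2*, a Rac GTPase-activating protein, at 2.68 ± 0.15 (adjusted p = 3.52e-11) and the receptor phosphatase gene *Ptpro* at 1.20 ± 0.20 (adjusted p = 5.62e-05). *Ptpro* was lower in progenitors than in excitatory neurons, at -3.97 ± 0.12 (adjusted p = 1.27e-15), where 5 partners were higher and 13 lower, beside 35.5% and 32.9% of all genes. In migrating neurons against IPCs 5 were higher and 4 lower, beside 16.2% and 17.1%, among them the phosphatase gene *Inppl1* at -1.53 ± 0.18 and the adaptor gene *Nck1* at -1.51 ± 0.12. In upper-layer against layer 6 neurons 8 were higher and 6 lower, beside 16.9% and 17.7%, with *Ngfr*, the low-affinity neurotrophin receptor, at -5.60 ± 0.46 and *Ngef*, an exchange factor that binds EphA receptors, at -4.83 ± 0.45. The size of both folds rests on few UMIs. In upper-layer neurons *Ngfr* held 0.373 and 0.347 CPM, the level of 3 UMIs, and *Ngef* 0.249 and 0.578 CPM. Layer 6 neurons held 17.9 and 17.2 CPM of *Ngfr* and 10.3 and 13.5 CPM of *Ngef*. In GABAergic neurons 8 were higher and 7 lower, beside 18.7% and 22.0%, with *Nck1* at 2.18 ± 0.09. In LGE-type against MGE neurons 5 were higher and 5 lower, beside 11.2% and 8.09%, with *Vav3*, another exchange factor, at 2.66 ± 0.25. In CGE against MGE interneurons 1 was higher and 1 lower, beside 3.52% and 3.73%. In Cajal-Retzius cells 2 were higher and 12 lower, beside 18.2% and 19.6%. In cycling RGCs 1 was higher and 2 lower, beside 7.18% and 4.15%, and in cycling IPCs 2 were higher and 3 lower, beside 15.1% and 12.3%. *Epha4*, by comparison, was not called between IPCs and RGCs, at 0.37 ± 0.21. It was higher in progenitors than in the mean of the excitatory classes by 1.41 ± 0.14 (adjusted p = 2.65e-08), the reverse of *Epha3* in that test. Migrating neurons, at 505 and 547 CPM of *Epha4*, were near RGCs at 550 and 569 CPM. Upper-layer neurons held 121 and 118 CPM and layer 6 neurons 158 and 131 CPM.

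Among 9229 genes ranked by the lower of the Pearson r of both embryos over the 9 classes, on log2(CPM + 1), the profile of *Epha3* was most like that of *Clip3* (0.865 and 0.910), then *Macrod1*, *Bcl7a*, *Tspan14* and *Flrt1*. That of *Epha5* was most like *Gm3764* (0.908 and 0.936), followed by *Tcf4*, *Bcl9* and *Fam172a* among others. *Epha6* was most like *Tafa1* (0.949 and 0.923), then *Grin3a*, *Cntn4*, *Dmrtb1* and *Lgr4*. *Epha7* was most like *Fam168a* (0.820 and 0.848), then *Sppl2a*, *Clip3*, *Macrod1* and *Khdrbs3*. The list for *Epha8*, led by *Tmx4*, rests on too few UMIs to be read. These are descriptions over 9 classes that share libraries, and *Clip3* and *Macrod1* stood in the lists of both *Epha3* and *Epha7*.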

How the data were processed

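The authors counted UMIs with Cell Ranger (7.0.0 in the submitters' processing notes, 7.1.0 in the matrix header) against mm10, and the deposited values are raw counts per gene and barcode, with 1 matrix per embryo and no normalization. Whether intron reads were counted is not given in the sources used here. Barcodes below 1000 detected genes (1772 and 765) or above 10% mitochondrial UMIs (174 and 56) were dropped, and those most like simulated doublets were removed at 0.8% per 1000 cells (947 and 1052). On log values per 10000 UMIs, Leiden clustering (resolution 1) over 20 neighbours in 30 principal components of 2000 variable genes, Eph and ephrin genes left out, gave 25 clusters (scanpy 1.11.5, leidenalg 0.10.2, scikit-learn 1.9.0, numpy 2.4.6, Python 3.11.15). A cluster was named where the mean log2 ratio of its class markers, with 10 CPM added, was at least 0.5 and 0.25 above the next class. At least 3 markers had to be found in 10% of its cells. Its 10 leading genes also had to hold more markers of that class than of any other. In a cycling cluster with no class marker among its leading genes, a marker mean of at least 1 was enough instead. A cluster was called cycling where the mean of the cycling genes was at least 1.5.

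UMIs were summed per embryo and class and fitted over all classes with edgeR 4.0.16 (TMM, filterByExpr, quasi-likelihood test; R 4.3.3), and 15879 genes were tested (16050 with the progenitor classes split). A standard error is the absolute log2 fold change divided by √F. The class sums of an embryo share an animal and are paired by its number: the differences between embryos of 36 pairs of classes correlated across 5026 genes with a median of 0.242. Changes in scale are small, and DESeq2's size factors moved the median of all genes by at most 0.104 (log2), in Cajal-Retzius cells.

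The 5 receptors, the family and partner lists and the tests were chosen with earlier results of these data known. Named genes are the members, the ephrin-A ligands, the 2 partners with the largest called change per comparison and the 5 genes most like each member in profile, of which 1 is not reported here. *Epha4*, *Sst*, *Eomes* and genes that lead clusters were named after their values were seen. Alternatives were other limits on genes and mitochondrial counts, doublets kept, other resolutions, Eph and ephrin genes used in the clustering, nearest-class naming, thinned cells, a fit of only the classes compared, no filter on low counts, a replicate block, DESeq2 1.42.0 and its size factors, and each embryo left out. Shares of cells and depth cover counting error only.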

Additional observations from a re-analysis of the deposited data

Results flagged for a closer look

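The following levels were found in cells that entered no comparison, and each exceeded what 0 counts would allow. *Epha6* reached a mean of 463 CPM over both embryos in the unnamed cluster led by *Tafa1* and *Tafa2* and 331 CPM in the unnamed cluster led by *Slit3* and *Crym*. *Epha7* reached 305 CPM in the first of these. In the fibroblast-like cells of embryo 5 *Epha7* was 408 CPM, on 245 UMIs in 52 cells, and embryo 4 held 1 such cell.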

How the results depend on the processing

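Of 617 refitted values of the members over 14 alternatives, 489 kept their direction and their side of the threshold, 29 lost and 39 gained a call, and 60 changed sign, among them values that were called in neither fit. Settings are given in parentheses, where 500 genes and 2000 genes are the limits on detected genes. *Epha6* in progenitors against excitatory neurons turned to -0.63 (2000 genes), -0.34 (5% mitochondrial), -0.45 (doublets kept), -0.87 (resolution 0.5), -0.57 (resolution 2), -0.083 (Eph genes in the clustering) and -1.82 (nearest class). *Epha5* in GABAergic against excitatory neurons turned to 0.95 (2000 genes), 1.07 (resolution 0.5), 0.027 (resolution 2), 0.0158 (DESeq2's size factors and DESeq2's own test) and 0.029 (thinned cells), and *Epha8* to -0.35 (2000 genes). *Epha5* in IPCs against RGCs turned to -0.28 (500 genes), -0.061 (2000 genes), -0.16 (doublets kept), -0.082 (resolution 0.5) and -0.045 (Eph genes in the clustering). *Epha6* in migrating neurons against IPCs turned to 0.51 (500 genes), 0.13 (5% mitochondrial), 0.58 (doublets kept), 1.76 (resolution 0.5), 0.34 (resolution 2), 0.14 (Eph genes in the clustering) and 3.81 (nearest class). *Epha6* in upper-layer against layer 6 neurons turned to 0.80 (500 genes) and 0.012 (doublets kept). *Epha7* in LGE-type against MGE neurons turned to 0.25 (500 genes), 0.17 (5% mitochondrial), 0.19 (doublets kept) and 0.065 (resolution 2). In cycling RGCs *Epha3* turned to 0.60 (2000 genes) and 0.40 (5% mitochondrial), *Epha5* to -0.35 (2000 genes), -0.10 (5% mitochondrial), -0.017 (resolution 0.5) and -0.010 (resolution 2), and *Epha6* to -1.02 (500 genes) and -1.84 (2000 genes). In cycling IPCs *Epha3* turned to 0.16 (500 genes), 0.36 (2000 genes), 0.42 (doublets kept) and 0.018 (Eph genes in the clustering), *Epha5* to 0.28 (500 genes), 0.089 (2000 genes) and 0.31 (doublets kept), *Epha6* to 0.35 (doublets kept) and 0.32 (thinned cells) and *Epha7* to 0.056 (500 genes) and 0.013 (doublets kept). Between the cycling effects *Epha3* turned to 0.24 (2000 genes), 0.70 (5% mitochondrial) and 0.093 (thinned cells), *Epha5* to -0.020 (500 genes), -0.44 (2000 genes) and -0.23 (doublets kept), *Epha6* to -0.81 (500 genes) and -1.19 (2000 genes) and *Epha7* to 0.096 (resolution 2). The cause was not tested.

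The number of members called, with the reported number first, went from 3 to 5 in GABAergic against excitatory neurons (500 genes, 5% mitochondrial, resolution 0.5, Eph genes in the clustering), from 5 to 3 in Cajal-Retzius cells (thinned cells, nearest class), from 2 to 1 (5% mitochondrial) and 0 (thinned cells) in cycling RGCs and from 3 to 0 (500 genes, 5% mitochondrial, resolution 0.5, Eph genes in the clustering) and 1 (2000 genes) in cycling IPCs. Between the cycling effects it went from 0 to 2 (500 genes, resolution 0.5, no filter) and 1 (5% mitochondrial, doublets kept, resolution 2, Eph genes in the clustering, replicate block, DESeq2, nearest class, only the classes compared). The replicate block changed no other call than those of *Epha5* given in the report. Without 1 embryo, 0 of 92 values turned sign among those called, and 50 differed from the fitted value by more than its standard error. The values without 1 embryo are log2 ratios of CPM without TMM factors, so the 50 include changes of scaling. *Epha6* in upper-layer against layer 6 neurons, which was not called, was -1.29 without embryo 4 and 1.05 without embryo 5. No layer 5 or subplate class was named, so the comparisons planned with them have no main result. Nearest-class naming gave a class under the layer 5 name, and in layer 6 against it *Epha3* was lower, at -1.99 (adjusted p = 4.4e-10), *Epha5* at -0.65 (adjusted p = 0.000312) and *Epha6* at -4.35 (adjusted p = 1.09e-10), with *Epha7* at 0.023 (adjusted p = 0.901). That class joined the unnamed clusters led by *Rspo3*, *Tafa1* and *Il1rapl2*. Their mean log2 ratios for layer 5 markers were -0.033, at most -0.0102 and 0.479, all under the limit of 0.5. The values therefore do not describe layer 5 neurons as such, and the *Tafa1* cluster is the one highest in *Epha6*. CGE interneurons were not named under 5 alternatives and LGE-type neurons under 2, which gave no value there.

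Over all genes, thinning to 2000 UMIs lowered the calls from 6473 to 3812 in GABAergic neurons, from 8099 to 5234 in IPCs against RGCs, from 5285 to 2979 in migrating neurons, from 5492 to 2762 in upper-layer neurons, from 1152 to 689 in CGE and from 3063 to 1577 in LGE-type neurons, from 5998 to 2005 in Cajal-Retzius cells, from 1819 to 690.0 in cycling RGCs, from 4404 to 1853 in cycling IPCs and from 1530.0 to 519 between the cycling effects. Nearest-class naming raised CGE calls to 6413, a fit of only the classes compared lowered LGE calls to 2011, and calls between the cycling effects rose to 2502 with 500 and 3654 with 2000 genes. The share of higher calls in cycling RGCs was 63.4% as reported, 53.3% with 500 genes, 49.5% with 2000 genes and 74.9% thinned. Between the cycling effects it was 30.3%, 42.7% with 2000 genes and 41.3% with 5% mitochondrial counts. In Cajal-Retzius cells it was 48.2%, and 60.0% by DESeq2.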
